A study of Apis mellifera with 96 samples.

Results

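Foragers were compared with nurses of a single origin colony of the honey bee (Apis mellifera), colony 137. The comparison took every library labelled with that colony, which is 16 of the 93 libraries of the series that have counts. There were 8 forager libraries, 4 at day 7 and 4 at day 26, and 8 nurse libraries, 4 at day 7 and 4 at day 26. Day entered each fit over both days as a term. Per the labels, workers of 6 origin colonies were spread as adults 1 day old over 3 nuclear hives with queens and honey frames. Bees of both roles were caught on days 7 and 26 and frozen. All bees were wild type and untreated, and whole-bee total RNA went into TagSeq libraries, in which each transcript is counted by a tag near its 3' end. The labels do not state what marked a bee as nurse or forager, or how many bees went into a library. The p-values therefore reflect how far these libraries scatter, which may be technical in part.

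Honey bee workers divide labour, with nurses that feed the brood inside the nest and foragers that collect nectar and pollen outside it. Nurses secrete brood food from the hypopharyngeal glands of the head, rich in the major royal jelly proteins (Mrjp genes), and their abdominal fat body makes vitellogenin, a yolk protein that also serves as a store. In foragers the same glands make carbohydrate-splitting enzymes for nectar, vitellogenin is low and the titre of juvenile hormone is high. Role usually goes with age, and a design with both roles on both days allows the roles to be compared on the same day.

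Libraries held 587375 to 1735367 counts on genes. Between 62.5% and 80.0% of forager reads and between 60.9% and 64.1% of nurse reads did not align. At day 26 foragers averaged 72.1% ± 5.30 and nurses 63.7% ± 0.402 (SD, n = 4 each, two-sided exact permutation p = 0.0286, the smallest these numbers of libraries allow, adjusted p = 0.0714 over 5 library measures). At day 7 they were 63.5% ± 0.715 in foragers and 62.1% ± 1.25 in nurses (exact permutation p = 0.143). Over both days the difference did not pass (67.8% ± 5.77 against 62.9% ± 1.18, SD, n = 8 each, exact permutation p = 0.0168, adjusted p = 0.0839 over 5 library measures). That test shuffled roles over all 16 libraries without day as a term, so differences between the days enter its spread. What part the share of unaligned reads had in the gene results was not tested.

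Some libraries labelled nurse did not carry the transcripts of the other nurses. A score was built for each library from 96 genes that differed by more than 2-fold between the roles in the other 5 colonies, 72 of them lower and 24 higher in foragers there. It is the mean log2(CPM + 1) of the 72 minus that of the 24, where CPM are counts scaled to a library of 1000000 counts on genes. At day 7 it lay between -0.86 and 0.87 in foragers, against 4.23 to 4.35 in 3 nurse libraries and 1.65 in the library labelled nurse, replicate 1. At day 26 it lay between -2.28 and -1.44 in foragers, against 2.05 to 2.79 in 3 nurse libraries and -0.70 in the library labelled nurse, replicate 3. The genes of the score were taken from other bees, so these positions do not rest on the calls in colony 137. Both, called the discordant libraries here, stay under their labels in the main fit, and some values are also given without them, that is, with 6 nurse libraries. The pair was picked for lacking much of the role difference, so leaving it out favours a wider difference and a narrower spread of the nurses. Values with 6 nurse libraries, counts of genes included, are therefore a description, and no call or p of a single gene is drawn from them. A pair of day 26 libraries, forager replicate 2 and the library labelled nurse, replicate 3, also stood apart in immune transcripts, as described further on.

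**Figure D1:**
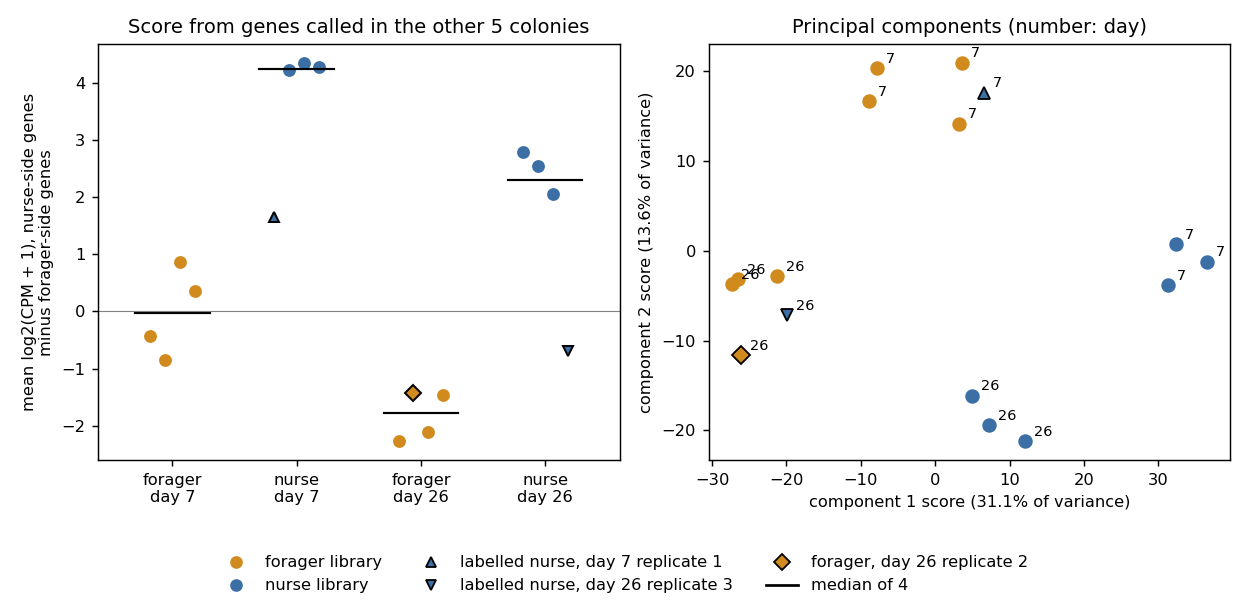
Left, the score of each colony 137 library from genes called in the other 5 colonies (vertical axis, difference of mean log2(CPM + 1), no unit), by role and day, with lines at the medians of 4 libraries. Right, the first principal components of log2 CPM, with 31.1% and 13.6% of the variance. The libraries labelled nurse at day 7, replicate 1, and at day 26, replicate 3, lie beside the foragers of their day in the right panel and between the roles in the left one.

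Foragers had lower levels of brood food, yolk and storage transcripts than nurses, and these were among the largest differences. In whole bees, fewer cells of a type and less RNA per cell cannot be told apart, for these or any other genes. In edgeR's quasi-likelihood test with Benjamini-Hochberg adjustment, 383 of 6392 genes differed at an adjusted p under 0.05, which is 5.99% of those tested. Foragers were lower in 254 of them (3.97% of tested genes) and higher in 129 (2.02%). The median log2 fold change (forager minus nurse) was -0.85 among the lower and 0.66 among the higher genes, and 0.01 over all genes tested. Falls reached further than rises, with 36 genes lower and 4 genes higher by over 2 on the log2 scale. Without the 2 libraries labelled nurse that stood near the foragers, 831 of 6507 genes differed (12.8%), 315 higher (4.84%) and 516 lower (7.93%), a count that the choice of the libraries left out favours. That set held 376 of the 383 genes, each with the same sign. The fits share all the remaining libraries, so this overlap was favoured in advance and is no separate support.

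The count of 383 moved with single libraries. It was 597 without the library labelled nurse at day 7, replicate 1, and 583 without the one at day 26, replicate 3. It was 203 without forager replicate 1 of day 7, 205 without nurse replicate 2 #2 of day 7 and 222 without nurse replicate 1 of day 26. Among the 254 lower genes, the library labelled nurse at day 7, replicate 1, lay at or below the highest forager library in 70.1%. That at day 26, replicate 3, did so in 83.1%. The other 6 nurse libraries did so in 5.12% to 25.6%. Among the 129 higher genes the discordant libraries lay at or above the lowest forager in 42.6% (day 7) and 66.7% (day 26). The other 6 did so in 21.7% to 43.4%, so that there the day 7 library did not stand apart.

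Royal jelly proteins were led by Mrjp3. In the values below, the libraries of a group run in the order 1, 2, 2 #2 and 3. Of 9 genes tested, 6 fell in foragers and none rose, beside 3.97% and 2.02% of all genes tested. The list had a median log2 fold change of -3.43. Mrjp3, a secreted brood food protein, had 539.8, 349, 582 and 614 CPM in day 7 foragers, against 1252, 30733, 27479 and 24655 CPM in day 7 nurses. At day 26 it had 504, 692, 758 and 571 CPM in foragers, against 25650.1, 35782, 17898 and 1332 CPM in nurses. Every nurse library lay above every forager library, and the 2 that stood near the foragers in the score were far closer to the foragers than to the other 6 nurses. The fitted log2 fold change was -5.17 ± 0.68 SE (adjusted p = 0.00163), and -5.57 with 6 nurse libraries.

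Mrjp1, the main protein of royal jelly, was the most abundant of the family. It had 1941, 2403, 22082 and 10300.0 CPM in day 7 foragers, against 18975, 92904, 91014 and 81127 CPM in day 7 nurses. Day 26 foragers had 2099.8, 9015, 2998 and 5388 CPM, against 87429, 124497, 67546 and 12367 CPM in day 26 nurses. The groups overlapped at day 7, where forager replicate 2 #2 exceeded the library labelled nurse, replicate 1, and did not overlap at day 26. The fitted difference was -3.43 ± 0.65 SE (adjusted p = 0.00982), and -3.78 with 6 nurse libraries.

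The other members that fell are also components of royal jelly. Mrjp4 ranged over 52 to 372 CPM in foragers (median 76.4), against 172 to 4161 CPM in nurses (median 3183), with a log2 fold change of -4.62 ± 0.69 SE (adjusted p = 0.00252). Mrjp2 (-4.02 ± 0.72 SE, adjusted p = 0.00715) and Mrjp7 (-3.54 ± 0.72 SE, adjusted p = 0.0143) fell as well. Mrjp5 had the smallest fall, with foragers of day 7 spread over 212, 1059, 3733 and 2926 CPM, against 3275, 5758, 6014 and 4235 CPM in day 7 nurses. Its day 7 groups overlapped, and its call (-2.28 ± 0.61 SE, adjusted p = 0.0444) was lost when any of 12 of the 16 libraries was left out, with adjusted p up to 0.0899.

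Mrjp6, Mrjp8 and Mrjp9 did not pass over both days. Mrjp6 had a log2 fold change of 0.84 ± 0.45 SE (adjusted p = 0.331), and its forager libraries at day 7 ranged over 121, 1042, 697 and 2069 CPM. Mrjp8 was at 80.3 ± 25.6 CPM in foragers, against 80.6 ± 17.4 CPM in nurses (SD, n = 8 each), with overlapping groups and a log2 fold change of 0.0042 ± 0.15 SE. Mrjp9, known also from venom, was higher in foragers at day 7 (0.80 ± 0.18 SE, adjusted p = 0.0374), with 129, 111, 148 and 104 CPM in foragers, against 72, 72.7, 75.7 and 61.4 CPM in nurses and no overlap. At day 26 its value was -0.18 ± 0.18 SE (adjusted p = 0.796), and the test between days gave no call (adjusted p = 0.662). Reads of these similar genes that align to several places were not assigned to a gene, so levels of close copies are uncertain.

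Yolk, storage and carrier proteins were lower in foragers for 5 of 8 members tested and higher for none. Over all genes tested these shares were 3.97% and 2.02%, and the list's median log2 fold change was -2.68. Vg, vitellogenin, had 163, 301, 197 and 370.1 CPM in day 7 foragers, against 283, 4705, 7228 and 6569.9 CPM in day 7 nurses. The day 26 values of Vg were 49.6, 101, 90.5 and 99.6 CPM in foragers, against 1896, 784, 893 and 173 CPM in nurses. At day 7 the library labelled nurse, replicate 1, fell among the foragers, and at day 26 all nurse libraries lay above all foragers. Vg was 14.2-fold lower in foragers in the fit (-3.83 ± 0.60 SE, adjusted p = 0.00377), and its log2 fold change was -4.22 with 6 nurse libraries. The test of whether the role difference of Vg differed between the days did not pass (0.73 ± 1.11 SE, adjusted p = 1).

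The storage proteins Hex110 and Hex70a, both hexamerins, and the lipoprotein Vhdl also passed. Hex70a had 134, 328, 187 and 255 CPM in day 7 foragers, against 206, 6599.7, 6061 and 4816 CPM in day 7 nurses. At day 26 it had 35.2, 31.3, 72.2 and 43.7 CPM in foragers, against 1984, 1100.3, 585 and 89 CPM in nurses. As for Vg, the library labelled nurse at day 7, replicate 1, was inside the range of the foragers of its day. That of day 26, replicate 3, was just above the foragers of its day. All fell, Hex110 (-4.69 ± 0.81 SE, adjusted p = 0.00592), Hex70a (-4.33 ± 0.69 SE, adjusted p = 0.00381) and Vhdl (-3.95 ± 0.76 SE, adjusted p = 0.00995).

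Fabp, a fatty acid binding protein, ranged over 89.1 to 139 CPM in foragers (median 112), against 67.7 to 530.2 CPM in nurses (median 345), and the library labelled nurse at day 26, replicate 3, was the lowest of all 16. It fell by 1.53 ± 0.30 SE (adjusted p = 0.0109), and its log2 fold change was -1.83 with 6 nurse libraries. The hexamerin Hex70c did not pass (-1.41 ± 0.48 SE, adjusted p = 0.086), and its log2 fold change was -1.80 with 6 nurse libraries.

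**Figure D2:**
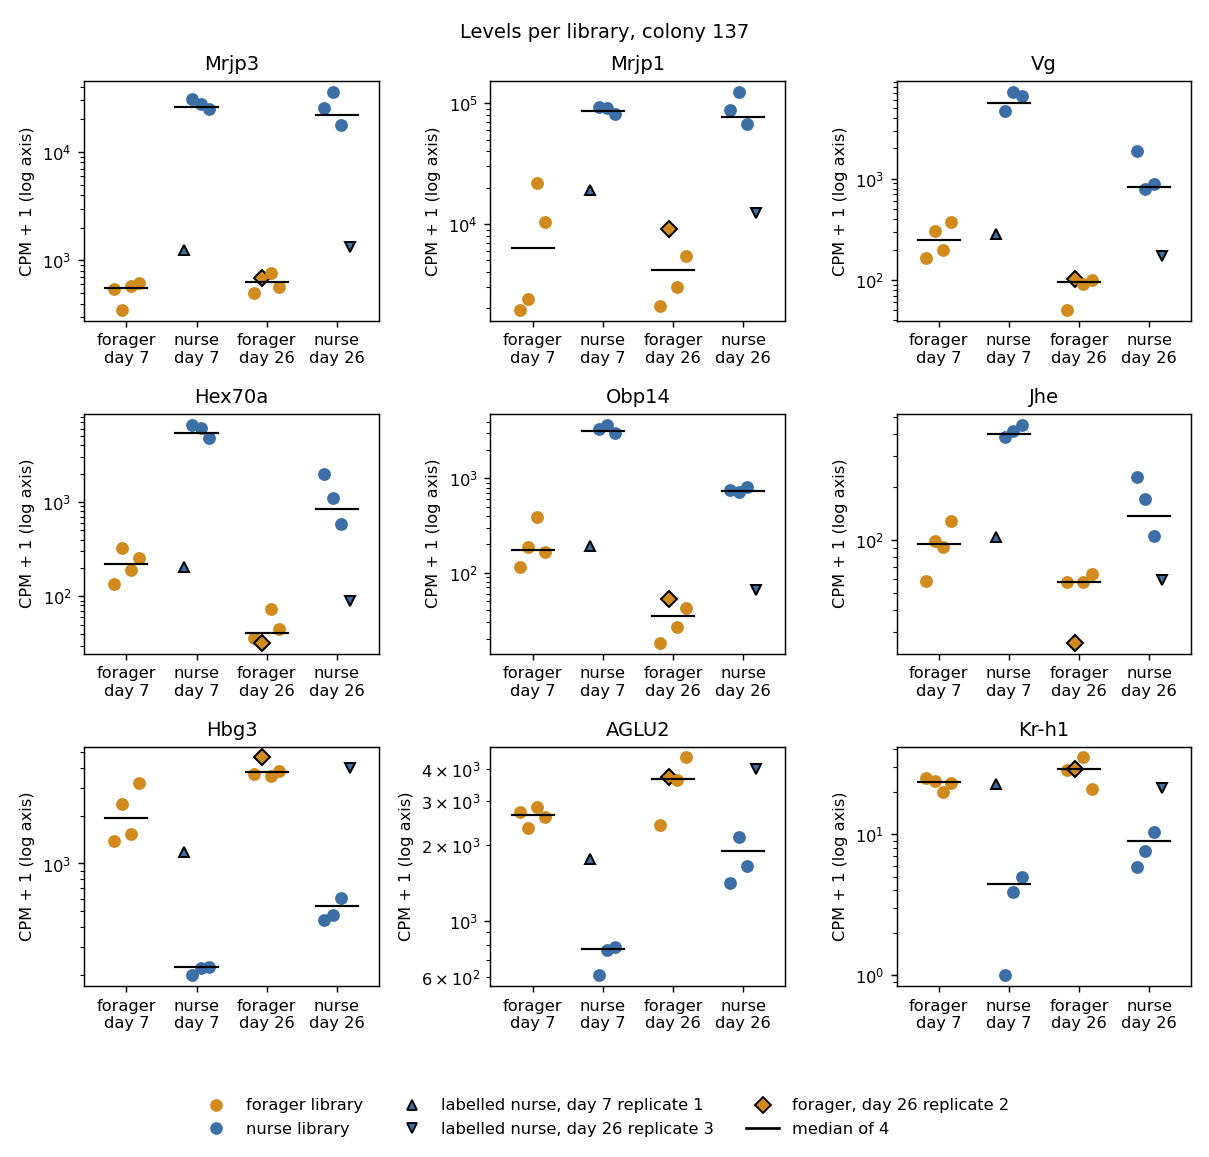
CPM + 1 on a log axis in each of the 16 libraries for 9 genes, forager and nurse of each day side by side, with lines at the medians of 4 libraries. In Mrjp3, Vg, Hex70a, Obp14 and Jhe foragers lie low and 6 nurses high, in Hbg3, AGLU2 and Kr-h1 the order is turned round, and the 2 marked libraries labelled nurse lie near or among the foragers.

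Of 3 sugar processing enzymes tested, 1 passed, AGLU2, and it was higher in foragers, as were 2.02% of all genes tested. Hbg3, an alpha-glucosidase of the hypopharyngeal glands that splits nectar sucrose, had 1391, 2354, 1531 and 3221 CPM in day 7 foragers, against 1172, 197, 221 and 222 CPM in day 7 nurses. Day 26 foragers had 3661, 4641, 3543 and 3819.5 CPM, against 443, 475, 609 and 3964 CPM in day 26 nurses. At day 26 the library labelled nurse, replicate 3, exceeded 3 of 4 foragers, and at day 7 all nurses lay under all foragers. With all 16 libraries the gene did not pass (1.87 ± 0.55 SE, adjusted p = 0.062). Its log2 fold change was 3.12 with 6 nurse libraries.

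AGLU2, another alpha-glucosidase, ranged over 2338 to 4457 CPM in foragers (median 2765), against 607 to 3997 CPM in nurses (median 1529.7). It rose by 1.02 ± 0.25 SE (adjusted p = 0.0261), a call that was lost without any 1 of 5 of the 16 libraries, with adjusted p up to 0.0608. Its log2 fold change was 1.43 with 6 nurse libraries. Hbg2, the remaining alpha-glucosidase tested, did not pass (0.10 ± 0.22 SE, adjusted p = 0.861).

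Juvenile hormone is degraded by the esterase Jhe and acts through the transcription factor Kr-h1, which it induces. Jhe ranged over 25 to 128 CPM in foragers (median 60.1), against 58.4 to 454 CPM in nurses (median 199), and fell by 1.68 ± 0.35 SE in foragers (adjusted p = 0.0146). It was the only one of 6 hormone-related genes tested to pass, beside 5.99% of all genes tested. Kr-h1 had 24.1, 22.7, 19 and 21.9 CPM in day 7 foragers, against 21.7, 0, 2.88 and 3.96 CPM in day 7 nurses. The day 26 values of Kr-h1 were 27.3, 28.2, 34 and 19.9 CPM in foragers, against 4.9, 6.64, 9.36 and 20.4 CPM in nurses. Here the libraries labelled nurse at day 7, replicate 1, and at day 26, replicate 3, lay within the forager range and the other 6 below it. Kr-h1 did not pass with all libraries (1.47 ± 0.44 SE, adjusted p = 0.062), and its log2 fold change was 2.41 with 6 nurse libraries. Crzr, the receptor of the neuropeptide corazonin, did not pass (1.09 ± 0.42 SE, adjusted p = 0.137).

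Odorant-binding proteins, small soluble carriers of hydrophobic molecules, included 4 genes that fell among 21 odorant-binding and chemosensory genes tested, and none that rose. Over all genes tested 3.97% fell and 2.02% rose. Obp17 had one of the smallest adjusted p-values of all genes. It had 237, 230.1, 181 and 189.9 CPM in day 7 foragers, against 368, 460.4, 714 and 680.3 CPM in day 7 nurses. At day 26 it had 56.1, 61.8, 77.8 and 90.1 CPM in foragers, against 452, 384, 251 and 166 CPM in nurses. Within each day the roles did not overlap, the discordant libraries included. It fell by 1.76 ± 0.21 SE (adjusted p = 0.000434), with log2 fold changes of -1.41 ± 0.27 SE at day 7 and -2.14 ± 0.28 SE at day 26.

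Obp14 had the largest fall of this list. It ranged over 17.3 to 393 CPM in foragers (median 83.4), against 64.9 to 3703 CPM in nurses (median 783). The discordant nurse libraries, 2 in number, lay within the forager range of both days together. That of day 26 lay above the foragers of its own day, of which the highest held 51.6 CPM. The log2 fold change of Obp14 was -3.83 ± 0.63 SE (adjusted p = 0.00466). Obp3 (-0.95 ± 0.24 SE, adjusted p = 0.0268) and Obp21 (-0.86 ± 0.17 SE, adjusted p = 0.00526) fell by less. The call of Obp3 was lost without any 1 of 7 libraries, with adjusted p up to 0.0601. The median log2 fold change of the list was 0.32.

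Cytochrome P450s, a family of oxidizing enzymes of which some act on toxins and plant compounds, went both ways. Of 5 tested, 1 rose and 2 fell, beside 2.02% and 3.97% of all genes tested. Cyp6as5 ranged over 25.4 to 46.7 CPM in foragers (median 33.1), against 9.09 to 32.3 CPM in nurses (median 16.5), and rose by 1.01 ± 0.19 SE (adjusted p = 0.00252). Its highest nurse library was above the lowest forager, so the groups overlapped. Cyp4g11, whose relatives in Drosophila melanogaster take part in making cuticular hydrocarbons, fell by 0.81 ± 0.22 SE (adjusted p = 0.0311). It differed at day 7 (-1.32 ± 0.26 SE, adjusted p = 0.025), where nurse replicate 2 held 6042 CPM and the other nurses 1966, 2829 and 2466 CPM. CYP6AS11 fell by 1.51 ± 0.42 SE, close to the threshold (adjusted p = 0.0496), and lost its call without any 1 of 13 libraries, as Cyp4g11 did without any 1 of 6. CYP6AQ1 (-0.51 ± 0.19 SE, adjusted p = 0.114) and CYP6AS13 (0.19 ± 0.12 SE, adjusted p = 0.387) did not pass.

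Of 11 genes of glutathione use, antioxidant defence and esterases, 1 fell, beside 3.97% of all genes tested. It was Est-6, an esterase, with 2.34, 1.11, 10.9 and 4.87 CPM in day 7 foragers, against 2.32, 37.4, 48.9 and 38.6 CPM in day 7 nurses. At day 26 no library of either role reached 3 CPM. The fall of Est-6 (-2.70 ± 0.64 SE, adjusted p = 0.0183) therefore rested on 3 nurse libraries of day 7. Without forager replicate 1 of day 7 it did not pass (adjusted p = 0.0551).

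Of 9 cuticle-related genes tested, 2 rose, beside 2.02% of all genes tested. CPR13, a cuticular protein, ranged over 7.3 to 16.1 CPM in foragers (median 10.8), against 0 to 5.56 CPM in nurses (median 3.54), and the groups did not overlap. It rose by 1.73 ± 0.31 SE (adjusted p = 0.00235). FAR1, a fatty acyl-CoA reductase, ranged over 68.2 to 254 CPM in foragers (median 129), against 46 to 133 CPM in nurses (median 64.7), with a rise of 0.85 ± 0.17 SE (adjusted p = 0.00698) and overlapping groups. Of 8 muscle genes 1 passed, beside 5.99% of all genes tested. It was the troponin C gene TpnCIIb, which fell by 0.96 ± 0.27 SE (adjusted p = 0.0417). TpnCIIIa, another troponin C, had the opposite sign and did not pass (0.79 ± 0.27 SE, adjusted p = 0.11). The call of TpnCIIb was lost without any 1 of 13 libraries, with adjusted p up to 0.0942.

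Of 14 neuronal genes 1 rose, as did 2.02% of all genes tested, so a single call does not set the list apart. The list's median log2 fold change was 0.39, beside 0.01 over all genes tested. The value was positive in 13 genes and negative in Cava2d2 (-0.72 ± 0.30 SE, adjusted p = 0.183), a calcium channel subunit. The gene that passed was Gat-1B, a transporter of the transmitter GABA, at 9.44 ± 2.28 CPM in foragers, against 4.21 ± 2.75 CPM in nurses (SD, n = 8 each; 1.12 ± 0.32 SE, adjusted p = 0.0399). Its call was lost without any 1 of 12 libraries, with adjusted p up to 0.0951. GluCl, a glutamate-gated chloride channel (0.59 ± 0.21 SE, adjusted p = 0.0975), and the glutamate transporter Eaat-2 (0.87 ± 0.30 SE, adjusted p = 0.0903) did not pass.

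Among the opsins, the light-sensing proteins of the eye, 1 of 3 rose, beside 2.02% of all genes tested. It was Uvop, the ultraviolet-sensitive one, at 34 ± 8.69 CPM in foragers, against 22.4 ± 6.82 CPM in nurses (SD, n = 8 each; 0.61 ± 0.18 SE, adjusted p = 0.041). Uvop lost its call without any 1 of 12 libraries, with adjusted p up to 0.0992. Lop1 (0.28 ± 0.14 SE, adjusted p = 0.272) and Blop (0.04 ± 0.28 SE, adjusted p = 0.954) did not pass.

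Subunits of the nicotinic acetylcholine receptor, the target of neonicotinoid insecticides, gave no call; the series also holds a chemical mortality assay, not analysed here. In edgeR's test 0 of 3 tested subunits passed, beside 5.99% of all genes tested, so having no call does not set the list apart. An unadjusted p under 0.05 was found for 1 of them, and DESeq2 called 0. nAChRa8 was at 24.4 ± 4.56 CPM in foragers, against 18.8 ± 5.2 CPM in nurses, nAChRa9 at 93.5 ± 30.4 CPM in foragers, against 72.5 ± 35.5 CPM in nurses and nAChRb2 at 36.6 ± 16.2 CPM in foragers, against 27.3 ± 17 CPM in nurses (SD, n = 8 each). The roles overlapped in all 3 genes. The library labelled nurse at day 26, replicate 3, had the highest nurse value of nAChRa9 and nAChRb2, 155 and 68.6 CPM. Forager replicate 2 of day 26 had the highest forager value of these genes, 156 and 75.1 CPM.

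**Figure D3:**
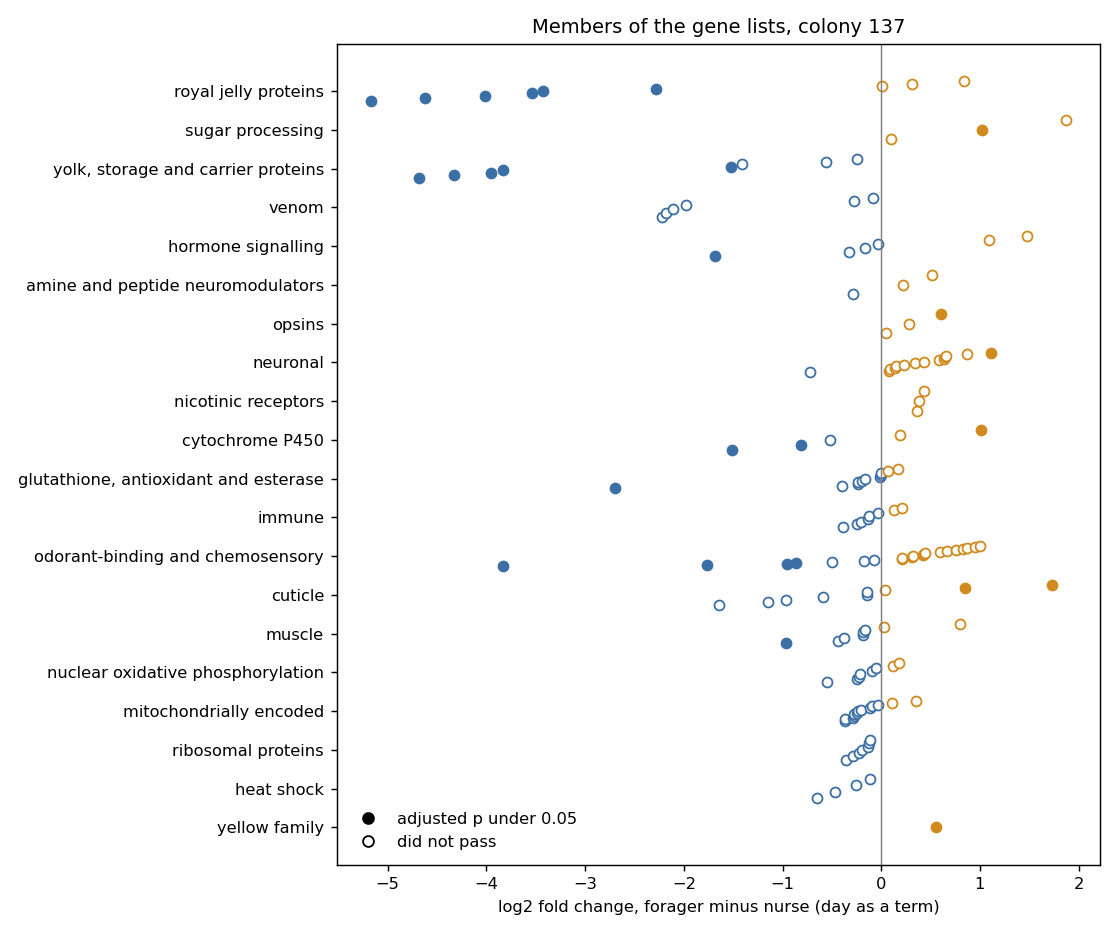
Log2 fold change (forager minus nurse, day as a term) of each tested member of 20 gene lists, 1 point per gene, filled where the adjusted p was under 0.05 and coloured by sign. Royal jelly and yolk and storage proteins hold the lowest filled points, from -5.17 for Mrjp3 to -3.95 for Vhdl. Above these, filled points of other lists, such as Obp14 at -3.83, lie among theirs, which reach up to -1.53 for Fabp. Neuronal genes lie to the right of 0 in 13 of 14 cases.

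Venom transcripts gave no call in edgeR's test over all 16 libraries. Of 6 venom genes 0 passed, beside 5.99% of all genes tested, so having no call does not set the list apart. An unadjusted p under 0.05 was found for 4 of them, and DESeq2 called 4. Melt, the precursor of the lytic peptide melittin, had 2399, 2596, 8740.2 and 4487 CPM in day 7 foragers, against 7473, 9773, 13629.5 and 7645 CPM in day 7 nurses. Day 26 foragers had 119, 104, 146 and 504 CPM, against 109.6, 3488, 2249 and 595 CPM in day 26 nurses. The roles overlapped on both days, and nurse replicate 1 of day 26 was as low as the foragers. Melt gave -1.97 ± 0.66 SE (adjusted p = 0.104). Apamin, a peptide that blocks potassium channels (-2.22 ± 0.70 SE, adjusted p = 0.0863), the mast cell degranulating peptide Mcdp (-2.18 ± 0.81 SE, adjusted p = 0.147) and the phospholipase Pla2 (-2.11 ± 0.69 SE, adjusted p = 0.0968) had values of similar size. The other two were nearer 0, Acph-1 at -0.28 ± 0.22 SE (adjusted p = 0.551) and C1q-VP at -0.0787 ± 0.13 SE (adjusted p = 0.801), and C1q-VP was above 0 at day 26 (0.0906).

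Immune transcripts gave no call between the roles with all 16 libraries and differed widely between libraries of day 26. Of 8 immune genes 0 passed in edgeR's test, beside 5.99% of all genes tested, so having no call does not set the list apart. An unadjusted p under 0.05 was found for 1 of them, and DESeq2 called 0. Def1, the antimicrobial peptide defensin, had 2735, 27879, 2871 and 5471 CPM in day 26 foragers, against 4855, 6319, 4977 and 29000.1 CPM in day 26 nurses. In both groups a single library, forager replicate 2 and the library labelled nurse, replicate 3, stood far above the rest. The same pair led in Apid1, an apidaecin, at 11376 and 10973 CPM, and in the peptidoglycan recognition protein Pgrp-s2, at 18238 and 17407 CPM. Summed over the immune genes the list reached 57966 CPM in the forager and 57943 CPM in the library labelled nurse, beside medians of 6249 CPM in foragers and 8136 CPM in nurses. Without this pair 587 of 6510 genes differed between the roles, beside 383 of 6392 (5.99%) with all 16 libraries. The log2 fold change of Pgrp-s2 was -0.63 without the pair and -0.25 with all 16 libraries. The pair was left out for its immune levels, so the values without it are a description. The library labelled nurse of this pair is also 1 of the discordant ones, so these 2 departures cannot be told apart in it.

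**Figure D4:**
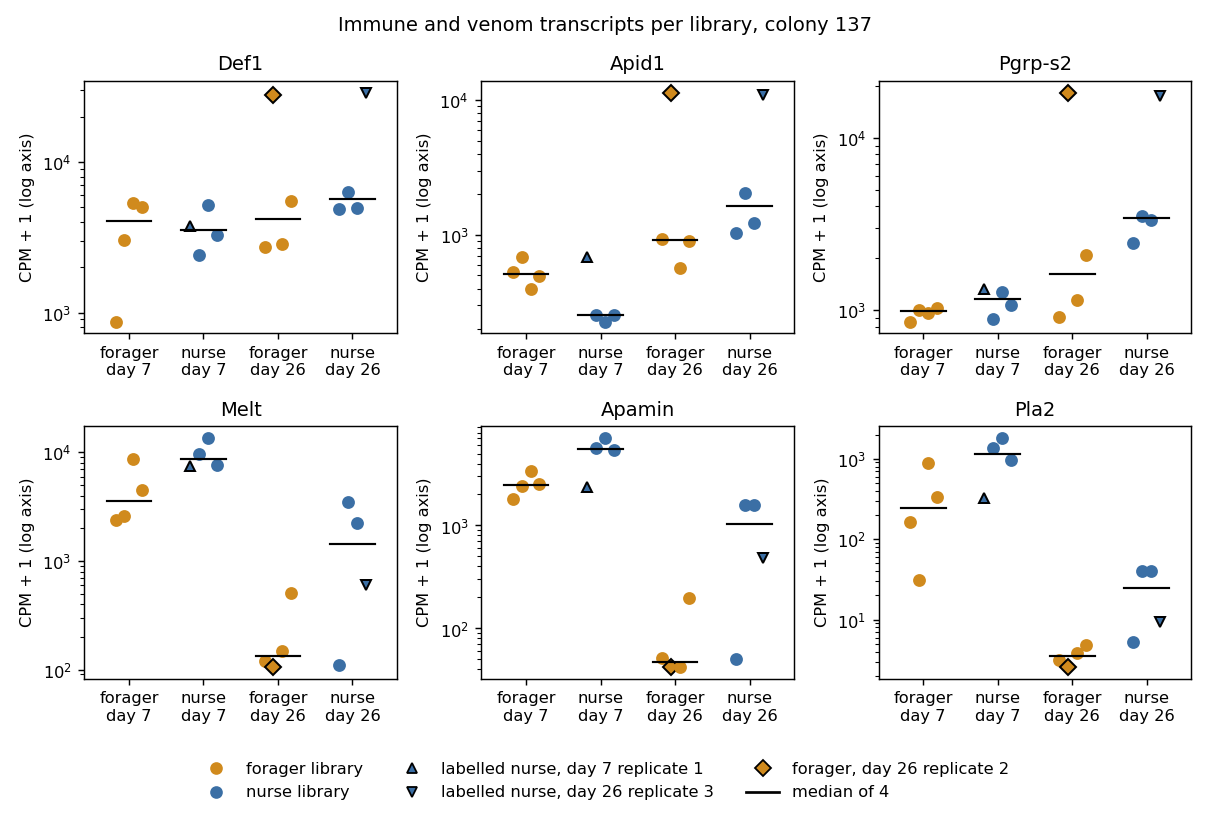
CPM + 1 on a log axis in each library for 3 immune genes (top) and 3 venom genes (bottom), forager and nurse of each day side by side, with lines at the medians of 4 libraries. Forager replicate 2 and the library labelled nurse, replicate 3, of day 26 stand at 27879 and 29000.1 CPM of Def1, and venom levels are lower in the day 26 libraries of both roles.

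Genes of ribosomal proteins, oxidative phosphorylation, mitochondria, heat shock and amine and peptide signalling gave no call in edgeR's test over all 16 libraries. That test called 5.99% of all genes tested, so having no call does not set lists this short apart. Of 7 ribosomal proteins 0 passed, with 2 at an unadjusted p under 0.05 and 1 called by DESeq2, and all 7 had a negative sign. Of 8 nuclear subunits of oxidative phosphorylation 0 passed (1 unadjusted, 0 by DESeq2), and of 13 mitochondrially encoded genes 0 (2 unadjusted, 0 by DESeq2). Of 4 heat shock genes 0 passed (3 unadjusted, 1 by DESeq2), and of 3 genes of amine and peptide signalling 0 (1 unadjusted, 0 by DESeq2). Mitochondrial genes took 5.76% ± 2.76 of forager gene counts and 5.86% ± 3.12 of nurse gene counts (SD, n = 8 each, exact permutation p = 0.924, without day as a term). By day the share was 8.28% in foragers and 8.68% in nurses at day 7, and 3.25% in foragers and 3.04% in nurses at day 26.

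Many of the largest differences were in genes known only by an identifier, whose product is not given in the sources used here. LOC724187, with the smallest adjusted p of all genes, had 0.779, 2.21, 0 and 0.812 CPM in day 7 foragers, against 1.55, 32.3, 14.4 and 30.7 CPM in day 7 nurses. The day 26 values of LOC724187 were 0.719, 0.782, 0 and 0.949 CPM in foragers, against 15.3, 7.47, 6.81 and 1.85 CPM in nurses (-3.82 ± 0.52 SE, adjusted p = 0.000212). Only in replicate 1 of day 7 did a nurse library fall within the range of its day's foragers.

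LOC727522 ranged over 19.5 to 91.6 CPM in foragers (median 41.3), against 44.5 to 3689 CPM in nurses (median 1387), with the largest fall of the genes without a name (-5.08 ± 0.72 SE, adjusted p = 0.00235). LOC724749 ranged over 1.44 to 22.7 CPM in foragers (median 5.24), against 12.1 to 304 CPM in nurses (median 133), and fell by 4.32 ± 0.50 SE (adjusted p = 0.00102). LOC100577331 fell by 3.88 ± 0.76 SE (adjusted p = 0.00904). In LOC724749 the library labelled nurse at day 7, replicate 1, held 123 CPM, above every forager.

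Among the rises, LOC411894 had the largest, ranging over 9.74 to 151 CPM in foragers (median 76.7), against 2.49 to 24.1 CPM in nurses (median 5.84) (3.25 ± 0.54 SE, adjusted p = 0.00515). LOC107963975 ranged over 96.6 to 584 CPM in foragers (median 442), against 22.2 to 149 CPM in nurses (median 49.1), and rose by 2.95 ± 0.43 SE (adjusted p = 0.0025). The roles overlapped in both genes. LOC725205 rose by 2.40 ± 0.41 SE (adjusted p = 0.00163) and LOC727193 by 2.15 ± 0.50 SE (adjusted p = 0.023, and 0.0512 without nurse replicate 3 of day 7). Leaving out the discordant libraries moved LOC107963975 only to 2.98. The named genes Reck (0.88 ± 0.20 SE, adjusted p = 0.00977), uzip (0.44 ± 0.12 SE, adjusted p = 0.031) and Y-f (0.56 ± 0.16 SE, adjusted p = 0.0429), a member of the yellow family to which the royal jelly proteins are related, also rose. The call of uzip was lost without any 1 of 8 libraries (adjusted p up to 0.0761) and that of Y-f without any 1 of 12 (up to 0.0941).

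In 12 of the 6392 genes (0.188%) the 8 forager and 8 nurse libraries did not overlap at all, 7 of them lower and 5 higher in foragers. The genes given here were chosen after their values were seen. LOC113218558 had 21, 16.6, 10.9 and 19.5 CPM in day 7 foragers, against 30.9, 44.4, 62.3 and 42.6 CPM in day 7 nurses. At day 26 it had 9.35, 18.8, 17 and 6.64 CPM in foragers, against 48.4, 34, 32.3 and 27.8 CPM in nurses. In this gene the discordant libraries also lay above every forager (-1.43 ± 0.20 SE, adjusted p = 0.000434).

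LOC113218550 ranged over 4.54 to 10.6 CPM in foragers (median 8.55), against 13.9 to 43.6 CPM in nurses (median 16.9) (-1.46 ± 0.23 SE, adjusted p = 0.00116). LOC100577527 ranged over 7024 to 11965 CPM in foragers (median 8863), against 2564 to 6289 CPM in nurses (median 3562) (1.18 ± 0.19 SE, adjusted p = 0.00123). LOC552728 ranged over 166 to 323 CPM in foragers (median 259), against 104 to 165 CPM in nurses (median 149) (0.82 ± 0.14 SE, adjusted p = 0.00167). Unlike Mrjp3, which is also among the 12, these genes differed by less than 1.5 on the log2 scale.

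Taken by day, fewer genes passed. At day 7 the test called 60 genes (0.939%), with foragers higher in 17 and lower in 43, and at day 26 it called 7 (0.11%), with foragers higher in 2 and lower in 5. The unadjusted p was under 0.05 for 878 genes at day 7 and 743 at day 26. Both counts hung on single libraries, at 0 to 351 for day 7 (0 without nurse replicate 2 of day 7, and 351 without the library labelled nurse, replicate 1) and 1 to 162 for day 26 (1 without nurse replicate 1 or 2 of day 26, and 162 without the library labelled nurse, replicate 3). With 6 nurse libraries the counts, favoured by the same choice, were 426 at day 7 and 241 at day 26.

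Both days called 4 genes, Obp17, LOC113218558, LOC724749 and LOC409643, all lower in foragers. Day 7 also called Mrjp3 (-5.33 ± 1.00 SE, adjusted p = 0.0333), Vg (-4.19 ± 0.88 SE, adjusted p = 0.0475) and Hex110 (-5.46 ± 1.14 SE, adjusted p = 0.0462). At day 26 these stood at -5.00 ± 0.99 SE (adjusted p = 0.0744), -3.46 ± 0.86 SE (adjusted p = 0.114) and -3.86 ± 1.08 SE (adjusted p = 0.165), and did not pass. LOC552728 was called at day 26 (1.06 ± 0.19 SE, adjusted p = 0.0185).

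The role difference was not shown to change between the days. In the test of the interaction of role and day edgeR called 0 of 6392 genes (0%), with 236 at an unadjusted p under 0.05. No other tool was run on it. All 383 genes called over both days had the same sign on both days, as had 63.8% of all tested genes. Since these genes were called on the mean of the days, that favours a shared sign. For Mrjp3 the difference of the day 26 value from that of day 7 was 0.34 ± 1.18 SE, and for Hbg3 -0.71 ± 1.08 SE. Without the library labelled nurse at day 7, replicate 1, 4 genes passed, and without both discordant libraries 2 did.

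The foragers and nurses of the other 5 origin colonies (76 libraries) came from the same hives and gave the same direction for most of these genes. In a fit of those colonies alone 1716 of 6791 genes differed (25.3%), a count that rests on far more libraries. Of the 380 genes called in colony 137 and tested there, 315 were called there too, each with the same sign. They are 82.2% of the 383 and 18.4% of the 1716. The sign was that of the mean of the other colonies in 377 of 380 (99.2%, beside 72.8% of all genes tested in both). It was that of each of the 5 colonies in 296 (77.9%, beside 25.4%).

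The difference between colony 137 and the mean of the other 5 was tested directly, and edgeR called 0 of 6753 genes (0%), with 308 at an unadjusted p under 0.05. No other tool was run on it. The widest gap among the genes named here was in LOC107963975, at 2.95 in colony 137 beside a mean of 0.44 and a range of -0.78 to 1.68 in the others (difference 2.53 ± 0.85 SE, adjusted p = 0.926). LOC724187 stood at -3.82 beside -2.38 to -0.93, and Obp14 at -3.83 beside -2.86 to -1.90. In edgeR's test of the colony difference neither passed (adjusted p = 0.996 and 0.999). Genes named for large changes in colony 137 are favoured by that choice to lie beyond the other colonies. For Mrjp3 the other colonies ranged over -5.58 to -3.37, for Vg over -3.88 to -1.98 and for Hbg3 over 1.49 to 2.72, and each range held the value of colony 137. The separate fits of colony 137 and of the other colonies share no libraries.

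**Figure D5:**
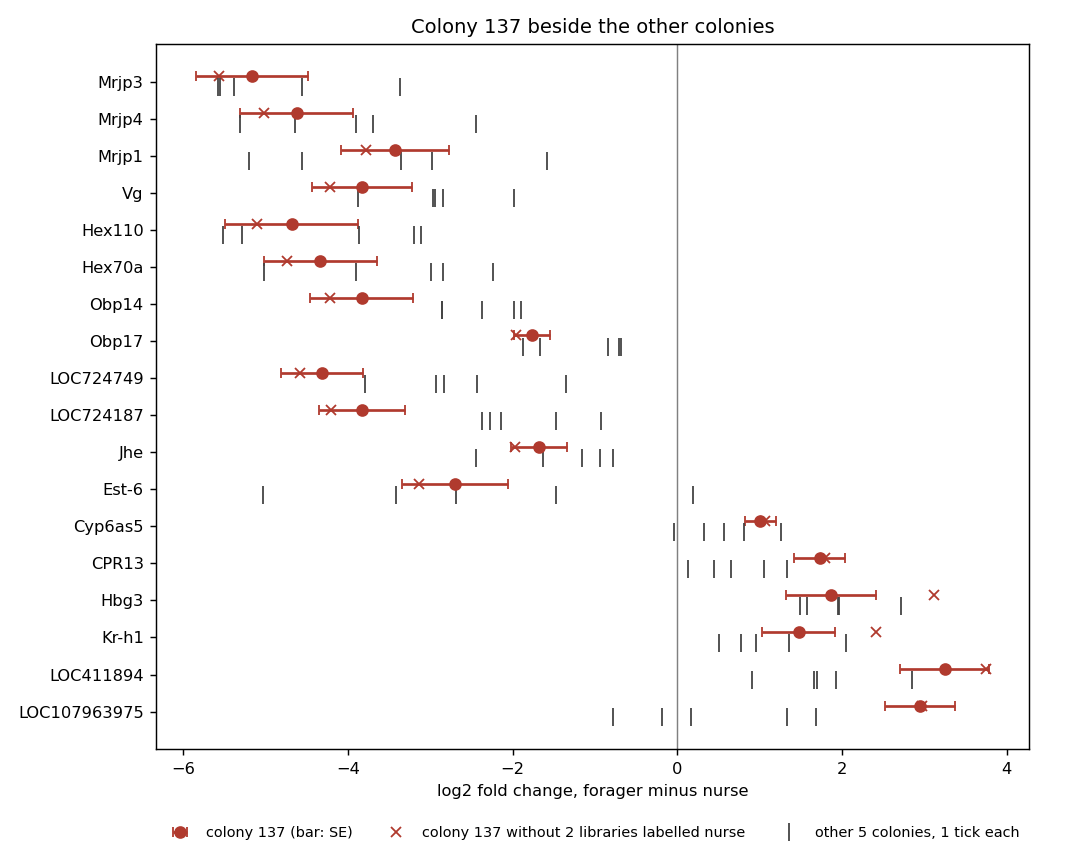
Log2 fold change (forager minus nurse, both days) of 18 genes in colony 137 with all libraries (red circle, bar SE) and with 6 nurse libraries (cross), and in each of the other 5 colonies (grey ticks). The sign is shared throughout except in Est-6, Cyp6as5 and LOC107963975, where some other colonies lie across 0, and LOC107963975 at 2.95 lies above all other colonies.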

How the data were processed

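The members of this comparison and the gene lists were chosen with earlier results of these data known. The deposited values are counts per gene made by the authors, whole numbers with no normalization; 5 entries for reads assigned to no gene were kept out of totals and tests. The submitters' processing notes list FastQC, HISAT2, SAMtools and DESeq2. No version, counting program, genome build or annotation is named in the labels, notes or file used here. No coordinates or sequences are printed. Gene names came from the table itself, and 9920 of 9935 were found as symbols in a RefSeq gene table (Amel_HAv3.1), 13 mitochondrial genes by locus tag and 2 not at all.

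Counts were filtered with filterByExpr (minimum count 10 over the groups of role and day), scaled by TMM and fitted in edgeR 4.0.16 under R 4.3.3 (glmQLFit with robust=TRUE and legacy=FALSE, glmQLFTest). The main fit took the 16 libraries with day and role as terms and 13 residual degrees of freedom. Means of the 4 groups gave each day and the interaction. A fit of 24 group means over 92 libraries gave the difference from the other 5 colonies, and 1 library with under 10% of the median total was left out. P-values were adjusted by Benjamini-Hochberg over every gene of a fit, with 0.05 as threshold. The method was tested on simulated data. DESeq2 1.42.0 was an alternative. CPM are counts scaled to 1000000 per library with TMM factors, with SD over libraries. Library measures were compared by two-sided exact permutation tests, which over both days did not take day into account.

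Named are, per the rule, the genes with the largest rises and falls that passed (mean of at least 5 CPM), the same among genes that have a symbol, at most 6 genes from any list, and a fixed set of nurse, forager, venom, immune and receptor genes. The text gives a part of them. Genes with no overlap between the roles were added after their values were seen. Libraries numbered 2 and 2 #2 were counted as separate samples, since they differed as much (median chi-square per gene 14.3) as libraries of different numbers (15.2). Alternatives were other scalings, filters, covariates and tools, a replicate block, libraries 2 and 2 #2 summed, and leaving out libraries or colonies. The negative control and 2 nurse samples of another colony have no counts here and were not analysed.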

Additional observations from a re-analysis of the deposited data

Results flagged for a closer look

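In groups of 4 libraries of colony 137, 1 library stood apart from the other 3 by Dixon's test at the 95% level in 33 of 284 groups tested over 66 genes and 5 library measures. For normally distributed values chance flags about 1 in 20 groups. Genes were tested on CPM without a log scale, for which that share was not checked. Genes that move together are flagged together.

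The library labelled nurse at day 7, replicate 1, had the lowest value of its group in Mrjp1 (18975 CPM) and Hex110 (59.6 CPM). It had the highest in Hbg3 (1172 CPM), AGLU2 (1763 CPM), Apid1 (679 CPM) and LOC107963975 (48 CPM). The library labelled nurse at day 26, replicate 3, was the lowest in Mrjp4 (172 CPM) and Obp14 (64.9 CPM). It was the highest in Hbg3 (3964 CPM), nAChRb2 (68.6 CPM), Def1 (29000.1 CPM), Apid1 (10973 CPM) and Pgrp-s2 (17407 CPM).

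Forager replicate 2 of day 26 was the highest of its group in Def1 (27879 CPM), Apid1 (11376 CPM), Pgrp-s2 (18238 CPM) and Hex110 (73.5 CPM), and the lowest in Jhe (25 CPM). Forager replicate 3 of day 26 was the highest in Melt (504 CPM), Apamin (195 CPM), Obp3 (861 CPM) and Est-6 (0.949 CPM, with the other 3 at 0). Forager replicate 2 #2 of day 26 had the highest share of reads not aligned (80.0%), GluCl (79.2 CPM) and LOC727522 (29.7 CPM), and the fewest counts on genes of the 16 libraries (587375).

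Forager replicate 2 #2 of day 7 was the highest in Mrjp7 (863 CPM) and Mcdp (1440.4 CPM). Forager replicate 3 of day 7 was the highest in Y-f (86.8 CPM) and LOC100577331 (13 CPM), and forager replicate 2 of day 7 the lowest in Gat-1B (6.64 CPM). Nurse replicate 2 of day 26 was the lowest in Mrjp6 (262 CPM) and Lop1 (98 CPM), and nurse replicate 3 of day 7 in Obp21 (1708 CPM).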

How the results depend on the processing

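The count of 383 genes over both days was 254 with day left out, 89 with libraries 2 and 2 #2 summed, 831 without both discordant nurse libraries and 587 without both libraries high in immune genes (the last 2 settings were chosen after seeing the data, by levels in those libraries), and 203 to 597 with single libraries left out. It stayed within 1.5 times of 383 with other scalings, filters, DESeq2 (479), group means, the fit of 92 libraries and a replicate block (369). Day 7 gave 20 genes with the replicate block, 426 and 155 without those pairs and 0 to 351 without single libraries, with 60 in the main fit. Day 26 gave 241 and 148 without the pairs and 1 to 162 without single libraries, with 7 in the main fit. The interaction gave 2 without the discordant pair and 0 to 4 without single libraries. The colony difference stayed at 0 in every setting run. The causes were not tested. The main fit did not treat replicate numbers as pairs. Deviations from group means correlated at a median of 0.0046 for the same number (36 pairs, -0.23 to 0.19) and 0.00013 for other numbers. These medians over whole libraries cannot exclude an effect shared by a number in some genes, and the labels do not tie a number to a hive.

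Of 41 called genes in the text, 29 kept their call without any single library and 12 lost it at least once. With libraries 2 and 2 #2 summed 20 kept their call and 20 lost it, and the remaining gene had no test result. With day left out 32 kept it and 9 lost it. Signs near 0 turned in genes that did not pass. Mrjp8 turned with DESeq2 size factors (-0.000228), no filter (-0.00649), the replicate block (-0.00581), 92 libraries (-0.00205), day left out (-0.00454) and no discordant pair (-0.0893). Hbg2 turned with 2 and 2 #2 summed (-0.0662), as did Apid1 (-0.055), which also turned with day left out (-0.0699) and without the immune pair (-0.0296). Blop turned without the discordant pair (-0.11) and the immune pair (-0.0595), and Def1 (0.40) and Pgrp-s2 (0.33) without the discordant pair. Without single libraries the log2 fold changes ran over -0.66 to 0.89 for Apid1, -0.096 to 0.23 for Blop, -0.74 to 0.37 for Def1, -0.0043 to 0.28 for Hbg2, -0.11 to 0.074 for Mrjp8 and -1.14 to 0.26 for Pgrp-s2. The differences of library measures (forager minus nurse) ran over 3.14 to 5.64 percentage points for reads not aligned, -0.38 to 0.84 for no feature, -1.07 to -0.72 for reads at several places and -0.63 to 0.51 for mitochondrial genes. Depth limits the lowest genes, as 1 to 3 counts are the whole signal of a gene near 1 CPM, and such limits cover counting error only.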
